A study of Homo sapiens with 32 samples.

Results

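The IFITM family and other interferon-induced genes were followed in 2 human germ cell cancer lines given RANKL, its inhibitors or vehicle. The 9 genes were IFITM1, IFITM2, IFITM3, ISG15, IFI6, IFIT1, STAT2, IRF1 and IRF9, out of 61541 genes in the count table, each found by its symbol. The set was chosen from measured values, around IFITM3 as the member that stood most clearly apart between OPG and RANKL libraries of TCam-2, so that contrast is described here and not tested.

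TCam-2 is an established line derived from a seminoma, and NTera2 is an established line derived from an embryonal carcinoma (EC). Both were kept for 48 h in medium with serum plus RANKL, OPG, denosumab or the vehicle D-PBS, with RANKL and OPG both at 1 µg/ml, with 4 libraries from independent experiments in each of the 8 groups. RANKL is a cytokine that binds the receptor RANK, OPG is a soluble decoy receptor for RANKL, and denosumab is an antibody against RANKL. Denosumab and its place among the groups rest on titles and treatment labels alone, since the treatment protocol does not name it, gives no dose under that name and lists RANKL again in its place. All cells of a line share 1 established line, so the libraries show no spread between tumours. The 4 libraries of a group came from 4 passages (118, 120, 121 and 122 in TCam-2, and 27, 29, 30 and 31 in NTera2), and each passage gave 1 library of every treatment.

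Total counts were 10585247 to 20257935 per TCam-2 library and 11385500 to 30499538 per NTera2 library. The RNA integrity number (RIN) was 6.1 and 3.7 in replicates 2 and 4 of the TCam-2 RANKL group and at least 8.3 in every other library with a value, which leaves out the first NTera2 vehicle library. Line markers followed the labels: under vehicle all 5 germ cell and seminoma markers tested were higher and all 5 embryonal carcinoma markers lower in TCam-2, with SOX17 at 161 CPM in TCam-2 and 0.0344 CPM in NTera2, and SOX2 at 2.50 CPM in TCam-2 and 303 CPM in NTera2. Of 6 leukocyte markers, PTPRC and CD3E had 0 counts in the vehicle libraries of both lines, and the 1 that was tested, ITGAX, had 2 counts in TCam-2 and 54 in NTera2. Of 5 fibroblast markers, DCN had 1 count in each line, and the 3 tested (PDGFRA, PDGFRB and COL1A1) were lower in TCam-2, with PDGFRB at 3.65 CPM in TCam-2 and 38.0 CPM in NTera2. Of the untested ones, CD14 had 14 counts in TCam-2 and 11 in NTera2 vehicle libraries, LYZ 1 and 3, CD79A 1 and 13, and LUM 3 and 5. The tested markers moved with the lines, and their part in the line differences below was not tested.

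Interferons bind cell-surface receptors whose kinases, JAK1 and TYK2 for type I interferon, phosphorylate STAT2 among other factors. STAT2 and IRF9 are subunits of the factor ISGF3, which binds the interferon-stimulated response element (ISRE) of target genes, while the gamma-activated site (GAS) is another element, used in the response to interferon gamma. IFITM1, IFITM2 and IFITM3 are small membrane proteins that block the fusion of entering viruses with cell membranes, and Ifitm3 also marks primordial germ cells in the mouse. In mouse osteoclast precursors RANKL is known to induce interferon beta.

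Promoter sequence is shown for IFITM1 and IFITM3 and for the members whose levels set the lines apart most clearly, as the 120 bases before the RefSeq start (GRCh38.p14), 5′ to 3′ on the gene's strand. The regions are chr11:313920-314039 (plus strand) for IFITM1, chr11:320861-320980 (minus strand) for IFITM3, chr1:1013377-1013496 (plus strand) for ISG15, chr1:27672193-27672312 (minus strand) for IFI6 and chr12:56360108-56360227 (minus strand) for STAT2. Capitals mark matches to the ISRE core, searched on both strands as GAAA, any 2 bases and GAAA.
IFITM1: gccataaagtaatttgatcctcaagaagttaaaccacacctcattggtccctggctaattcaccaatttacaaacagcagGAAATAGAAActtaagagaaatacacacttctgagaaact
IFITM3: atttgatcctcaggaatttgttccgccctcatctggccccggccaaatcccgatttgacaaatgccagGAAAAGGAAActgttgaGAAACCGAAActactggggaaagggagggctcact
ISG15: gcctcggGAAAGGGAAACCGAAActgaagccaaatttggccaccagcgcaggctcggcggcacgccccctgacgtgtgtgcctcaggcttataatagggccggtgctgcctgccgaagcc
IFI6: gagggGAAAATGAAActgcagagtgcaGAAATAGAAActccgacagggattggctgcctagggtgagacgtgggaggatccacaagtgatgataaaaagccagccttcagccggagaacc
STAT2: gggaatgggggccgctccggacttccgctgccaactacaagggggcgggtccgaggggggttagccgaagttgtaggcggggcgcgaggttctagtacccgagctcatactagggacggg

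RefSeq promoters were found for 8 of the 9 members, all but IFITM2. Within the 250 bases before the start, the ISRE core was found in 5 of the 8, namely IFITM1, IFITM3, ISG15, IFI6 and IFIT1, and in 3.02% of 35116 promoters of the same length. IFITM3 held matches 52 to 43 and 35 to 26 bases before its start, and IFITM1 held 1 match, 40 to 31 bases before its start. The matches of ISG15 overlapped each other, and IFI6 held 3, of which 1 lies outside the printed stretch. The GAS motif TTCNNNGAA, which is its own reverse complement, was found in 3 of the 8, IFITM1, IRF1 and IRF9, and in 6.57% of all promoters. The window of STAT2 held neither motif. The 5 effectors with a promoter in the table thus carried the ISRE letters, and the transcription factors STAT2, IRF1 and IRF9 did not, within these windows.

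The deposited table places the IFITM genes next to each other on chromosome 11 (GRCh38): IFITM2 (ENSG00000185201, 303655 to 309377, plus strand), IFITM1 (ENSG00000185885, 310041 to 315272, plus strand) and IFITM3 (ENSG00000142089, 319676 to 329475, minus strand). ISG15 (ENSG00000187608) lies on chromosome 1 from 1001138 to 1014435, IFI6 (ENSG00000126709) on chromosome 1 from 27666064 to 27672178, and IFIT1 (ENSG00000185745) on chromosome 10 from 89392546 to 89406487. STAT2 (ENSG00000170581) lies on chromosome 12 from 56341597 to 56360107, IRF1 (ENSG00000125347) on chromosome 5 from 132440440 to 132508719, and IRF9 (ENSG00000213928) on chromosome 14 from 24161265 to 24166565. The counts are per gene and not per exon or isoform.

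The IFITM genes share sequence, which bears on how firmly their counts can be told apart. Of the 52-base words in their coding transcripts (GENCODE 29), 32.5% for IFITM1, 34.5% for IFITM2 and 15.1% for IFITM3 also occurred in another gene, mostly in each other. How the counting treated reads with several matches is not given in the sources used here, so the split between the IFITM genes is uncertain to that extent. IFIT1 overlaps LIPA on the opposite strand (7125 counts over all libraries), and IRF9 overlaps ENSG00000259529 on the same strand (1347 counts), so their low counts are uncertain too.

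The lines differed first in which IFITM genes they carried. TCam-2 had IFITM3 with little IFITM1 and hardly any IFITM2, while NTera2 had all 3. On a length-corrected scale (counts per kilobase of the deposited gene length, scaled to the same total in every library, here TPM), IFITM3 made up 88.7% ± 2.03 of the summed IFITM1, IFITM2 and IFITM3 level in TCam-2 and 53.0% ± 2.23 in NTera2 (SD, n = 16 libraries). IFITM1 made up 10.9% ± 1.89 in TCam-2 and 37.2% ± 1.63 in NTera2, and IFITM2 made up 0.348% ± 0.292 in TCam-2 and 9.80% ± 0.942 in NTera2. The summed level was 216 ± 28.0 TPM in TCam-2 and 541 ± 25.2 TPM in NTera2.

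Ordered by TPM over 16 libraries of a line, TCam-2 had IFITM3 at 192 ± 25.2 TPM (SD), STAT2 at 91.9 ± 7.59 TPM and IFITM1 at 23.7 ± 5.16 TPM. After these came IRF9 (2.57 TPM), ISG15 (1.73 TPM), IRF1 (1.35 TPM), IFITM2 (0.743 TPM), IFIT1 (0.238 TPM) and IFI6 (0.0632 TPM), where each neighbour in the order overlapped the next. NTera2 had IFITM3 at 287 ± 16.3 TPM, IFITM1 at 202 ± 13.2 TPM, IFITM2 at 53.1 ± 5.99 TPM and STAT2 at 27.6 ± 2.41 TPM. It then had ISG15 (12.6 TPM), IFI6 (4.01 TPM), IRF9 (1.89 TPM), IRF1 (1.57 TPM) and IFIT1 (0.221 TPM). From STAT2 to IRF1 in NTera2 each member overlapped the next, while IRF1 and IFIT1 did not overlap. On this scale IFITM3 led in both lines, and STAT2 had rank 2 in TCam-2 and rank 4 in NTera2. Without the length correction STAT2 averaged 156 CPM and IFITM3 149.5 CPM in TCam-2, so the lead of IFITM3 there rests on the deposited lengths.

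All following levels are CPM (counts scaled to library size with TMM factors over all 32 libraries, not corrected for gene length), given for replicates 1 to 4 in that order. IFITM3 had 144, 141, 137 and 174 CPM in TCam-2 vehicle libraries, against 217, 227, 204 and 225 CPM in NTera2 vehicle libraries. Every TCam-2 vehicle library was below every NTera2 vehicle library, and the log2 fold change of TCam-2 over NTera2 was -0.53 (SE 0.0795, edgeR quasi-likelihood test, Benjamini-Hochberg adjusted p = 1.32e-05). IFITM1 had 12.2, 9.07, 13.5 and 8.33 CPM in TCam-2 vehicle libraries, against 83.0, 87.8, 89.7 and 94.0 CPM in NTera2 vehicle libraries. The log2 fold change of IFITM1 was -3.03 (SE 0.126, edgeR adjusted p = 1.57e-12), and over all treatments the 16 TCam-2 libraries (7.31 to 14.2 CPM) stayed below the 16 NTera2 libraries (71.9 to 94.0 CPM). IFITM2 had 0.156, 0, 0.235 and 0.215 CPM in TCam-2 vehicle libraries, which is 8 counts in all, against 22.4, 21.5, 24.5 and 21.5 CPM in NTera2 vehicle libraries, which is 1421 counts. Its log2 fold change was -7.06 (SE 0.274, edgeR adjusted p = 6.23e-13), and the 16 libraries of each line did not overlap in CPM (0 to 0.942 in TCam-2, 14.9 to 25.3 in NTera2). The order of the IFITM differences was thus IFITM2, IFITM1 and IFITM3, with IFITM3 the most alike between the lines. In these bulk libraries, fewer cells with a transcript and less of it per cell cannot be told apart.

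**Figure D1:**
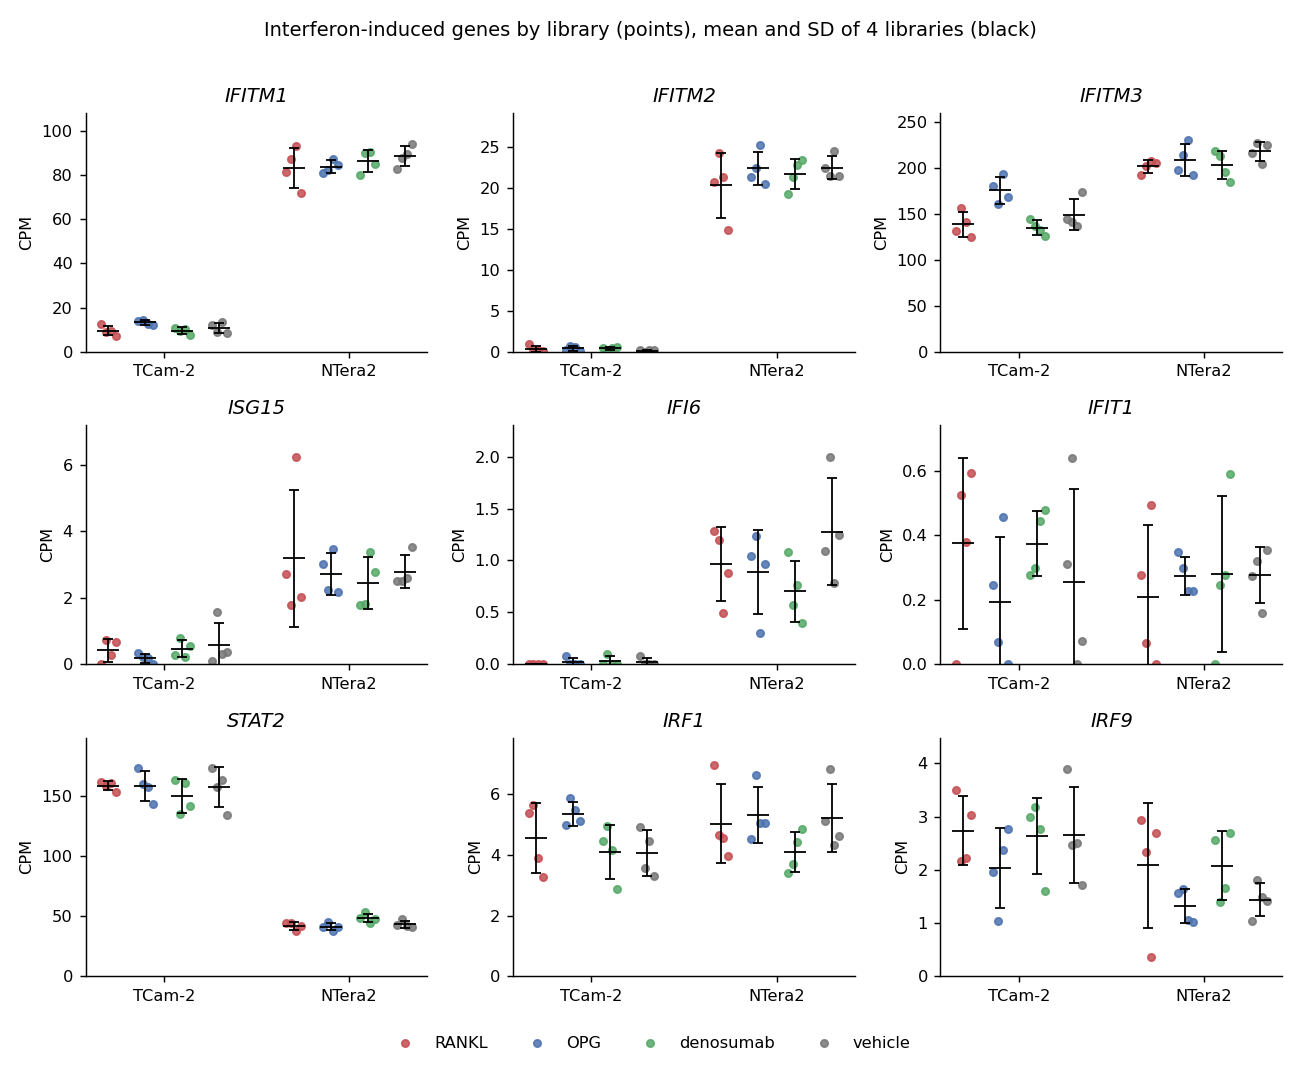
Level of each member in CPM (vertical axis, linear, from 0) for every library, in TCam-2 (left) and NTera2 (right), with RANKL, OPG, denosumab and vehicle from left to right in each line. Points are libraries, black marks are means with SD of 4 libraries (cut off at 0). The lines stand apart in IFITM1, IFITM2, ISG15, IFI6 and STAT2 and overlap in IFITM3, IFIT1, IRF1 and IRF9. The share of all genes that stand apart in this way was not counted.

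Of the other effectors, ISG15, a ubiquitin-like protein that is attached to other proteins, was lower in TCam-2. It had 0.0780, 1.56, 0.314 and 0.359 CPM in TCam-2 vehicle libraries (27 counts in all), against 2.51, 2.51, 2.59 and 3.55 CPM in NTera2 vehicle libraries (178 counts). Every TCam-2 vehicle library was below every NTera2 one, and the log2 fold change of TCam-2 over NTera2 was -2.31 (SE 0.508, edgeR adjusted p = 0.000598). Without TCam-2 vehicle replicate 2, the highest of its group, it was -3.44. IFI6, an interferon-induced membrane protein, had 0.0780, 0, 0 and 0 CPM in TCam-2 vehicle libraries, which is 1 count, against 1.09, 1.99, 0.786 and 1.24 CPM in NTera2 vehicle libraries, which is 82 counts. The counting ratio of NTera2 over TCam-2 was 65.1, with a 95% interval of 11.4 to 2603 that covers counting error only. In edgeR IFI6 was called lower in TCam-2 (adjusted p = 5.3e-06). IFI6, ISG15 and IFITM2 passed the filter on low counts only through NTera2, where they are high. The filter thus favoured a lower call in TCam-2, and their calls are a description. IFIT1, which binds foreign RNA ends, had 12 counts over the 4 TCam-2 vehicle libraries and 18 over the 4 NTera2 vehicle libraries. It was below the filter on low counts in every fit and was not tested, and at this depth no difference in IFIT1 could be detected.

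Among the transcription factors, STAT2 went the other way. It had 173, 158, 163 and 134 CPM in TCam-2 vehicle libraries, against 42.2, 47.7, 41.9 and 41.1 CPM in NTera2 vehicle libraries. STAT2 was higher in TCam-2 with a log2 fold change of 1.88 (SE 0.0902, edgeR adjusted p = 9.45e-12), and the 16 libraries of each line did not overlap (134 to 173 CPM in TCam-2, 37.5 to 53.1 CPM in NTera2). IRF9, the DNA-binding subunit of ISGF3, had 3.90, 2.47, 2.51 and 1.72 CPM in TCam-2 vehicle libraries, against 1.04, 1.80, 1.49 and 1.42 CPM in NTera2 vehicle libraries. IRF9 was called higher in TCam-2 by 0.90 on the log2 scale (SE 0.314, edgeR adjusted p = 0.0156). That call was lost without TCam-2 vehicle replicate 1 (adjusted p = 0.0930) and without NTera2 vehicle replicate 1 (adjusted p = 0.0605), over a range of 0.00515 to 0.0930 with each of the 8 libraries left out. IRF1, a factor induced by interferon gamma, had 4.91, 3.57, 4.47 and 3.30 CPM in TCam-2 vehicle libraries, against 5.13, 6.82, 4.32 and 4.61 CPM in NTera2 vehicle libraries. Its libraries overlapped between the lines and its log2 fold change of -0.35 was not called (SE 0.212, edgeR adjusted p = 0.147).

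Under vehicle 7 of the 8 members tested were thus called, 2 higher and 5 lower in TCam-2. The lines differed widely in all, since 76.2% of 16816 genes were called in this comparison (37.4% higher and 38.8% lower), so the number of members called is near the background and is not in itself a result about them. How many of all genes had libraries that did not overlap between the lines was not counted. The lack of overlap of single members is thus not in itself a result about them either. The median log2 fold change of the 8 members was -1.42, against -0.01 over all genes tested. That median includes IFITM2, ISG15 and IFI6, which passed the filter only through NTera2, so it is a description too. The same libraries differ in medium (RPMI for TCam-2 and DMEM for NTera2), which cannot be told apart from the line.

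The line difference was then read in libraries the vehicle comparison did not use. They come from the same passages as the vehicle libraries, and the dispersion was taken from all 32 libraries, so this is not an independent test. Leaving out IFITM3 where its TCam-2 libraries chose it, called members numbered 5 of 7 within RANKL and 5 of 7 within OPG, and with IFITM3 they numbered 6 of 8 within denosumab, where 74% of 19216 genes were called within RANKL, 73.9% within OPG and 73.4% within denosumab. In each, STAT2 was the 1 member called higher, and the other called members (4, 4 and 5) were lower. Of all genes, 37.1% were higher and 37% lower within RANKL, 36.1% and 37.8% within OPG, and 36.9% and 36.5% within denosumab. The lower members include IFITM2, ISG15 and IFI6, which passed the filter only through NTera2, so their calls are a description. IRF9 and IRF1 were not called in any of the 3. STAT2 was higher in TCam-2 by 1.90 (SE 0.0777) within RANKL, 1.94 (SE 0.0781) within OPG and 1.62 (SE 0.0778) within denosumab on the log2 scale. IFITM1 had log2 fold changes of -3.13 (SE 0.121) within RANKL, -2.66 (SE 0.119) within OPG and -3.19 (SE 0.124) within denosumab. Both genes kept the direction seen under vehicle, with IFITM1 least apart within OPG.

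IFITM2 had log2 fold changes of -5.89 within RANKL, -5.88 within OPG and -5.69 within denosumab (SE 0.300 to 0.304), from 22, 21 and 23 counts in the TCam-2 groups. It was -6.94 within RANKL without TCam-2 RANKL replicate 1, and -6.50 within OPG without TCam-2 OPG replicate 2, the highest libraries of these groups, and -5.13 within RANKL without the low-RIN libraries. ISG15 had -2.94 within RANKL (SE 0.536), -3.99 within OPG (SE 0.648) and -2.49 within denosumab (SE 0.565), with -4.37 within RANKL when the low-RIN libraries were left out. IFI6 was at least 22.4-fold lower in TCam-2 within RANKL, computed against a floor of 3 counts over the group, since these TCam-2 libraries held 0 counts. Its counting ratio of NTera2 over TCam-2 was 53.3 (95% interval 9.23 to 2138) within OPG and 38.2 (6.45 to 1548) within denosumab. IFITM3 had log2 fold changes of -0.56 within RANKL, -0.25 within OPG and -0.60 within denosumab (SE 0.0762 to 0.0770). The RANKL and OPG values of IFITM3 rest on the libraries that chose it and are a description. Its smallest distance between the lines, within OPG, goes with the high OPG values in TCam-2 described below.

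**Figure D2:**
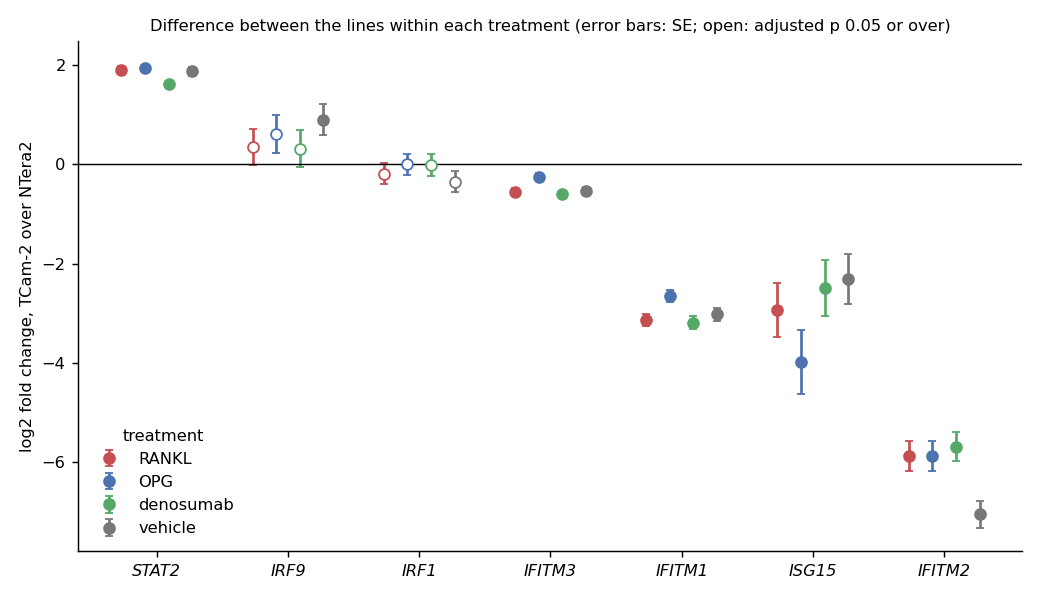
Log2 fold change of TCam-2 over NTera2 (vertical axis) for 7 members (horizontal axis) within RANKL, OPG, denosumab and vehicle, with SE as error bars. Filled points had an edgeR adjusted p under 0.05. This is a description and no test for IFITM3 within RANKL and OPG, and for IFITM2 and ISG15 throughout. STAT2 lies near 1.9 in all but denosumab, IFITM1 between -3.19 and -2.66 and IFITM2 between -7.06 and -5.69, IRF1 is not called in any treatment, and IFI6 and IFIT1 are left out because of their low counts.

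Neighbours of the IFITM genes on chromosome 11 were read where their mean was at least 1 CPM in either line, and they did not all follow them. Over 16 libraries of each line, PGGHG, the nearest gene at that level before IFITM2, averaged 15.3 ± 2.33 CPM in TCam-2 and 95.4 ± 10.6 CPM in NTera2 (SD). B4GALNT4, the nearest at that level beyond IFITM3, averaged 29.1 ± 5.72 CPM in TCam-2 and 129 ± 20.6 CPM in NTera2. Farther out, PSMD13, a proteasome subunit gene, averaged 176 ± 14.6 CPM in TCam-2 and 199 ± 8.16 CPM in NTera2. PKP3, a desmosomal plaque gene, averaged 117 ± 11.03 CPM in TCam-2 and 0.169 ± 0.161 CPM in NTera2. SIRT3, a mitochondrial deacetylase gene before PSMD13, averaged 9.00 ± 1.65 CPM in TCam-2 and 17.4 ± 1.93 CPM in NTera2. The neighbours at that level from SIRT3 to B4GALNT4 thus had lower means in TCam-2, PSMD13 by little, and PKP3 had a higher one. Before SIRT3, BET1L (70.3 CPM in TCam-2 and 64.4 CPM in NTera2) and RIC8A (140 and 130 CPM) had somewhat higher means in TCam-2. Beyond PKP3, SIGIRR (42.2 and 14.4 CPM), ANO9 (4.92 and 0.444 CPM) and PTDSS2 (69.3 and 59.6 CPM) had higher means in TCam-2 too. The other genes of the family were scarce: IFITM10 had 16 counts over the 16 TCam-2 libraries and 141 over the 16 NTera2 libraries, IFITM5 had 2 and 3 counts in TCam-2 and NTera2, and the pseudogene IFITM4P had 5 and 26.

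The wider interferon pathway was read from a list of 98 genes in roles from ligand to effector. In the vehicle comparison 58 were tested, of which 27 were higher in TCam-2, 19 lower and 12 not called. Over all genes 76.2% were called (37.4% higher and 38.8% lower), so the number of pathway genes called is near the background. The list had a median log2 fold change of 0.23 against -0.01 over all genes tested. Genes nearly silent in a line, such as BST2 and EPSTI1, passed the filter through the other line. Ligands were nearly silent in both lines. Of 10 interferon genes, 8 had no count in any of the 32 libraries. IFNE, an interferon of the female reproductive tract, had 27 counts over the TCam-2 libraries and 4 over the NTera2 libraries, and IFNK had 3 counts in TCam-2 and 0 in NTera2.

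Of the receptors and kinases, 3 of 8 tested were higher in TCam-2, 2 lower and 3 not called. The kinases JAK1 (log2 fold change 1.38, SE 0.101) and TYK2 (1.62, SE 0.0814) were among the higher ones, and the type I receptor subunits split, with IFNAR1 at 0.43 (SE 0.137) and IFNAR2 at -0.42 (SE 0.170). These 4 receptor and kinase genes were picked after their values were seen. Of the transcription factors, 5 of 7 were higher and 2 lower. IRF7, which drives interferon alpha genes, was higher by 1.87 (SE 0.273) and IFI35, an interferon-induced leucine zipper protein, by 2.61 (SE 0.316).

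Of the sensors and adaptors, 2 of 6 were higher, 3 lower and 1 not called. IFI16, a sensor of DNA, was higher in TCam-2 by 2.97 on the log2 scale (SE 0.145), while IKBKE, a kinase that activates IRF3, had -2.13 (SE 0.196). Of the negative regulators, 4 of 7 were higher, 1 lower and 2 not called, with SOCS3, an inhibitor of JAK kinases, higher by 1.95 (SE 0.123).

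Antiviral effectors were split evenly, with 7 of 15 higher, 7 lower and 1 not called. ISG20, an exonuclease, was higher in TCam-2 by 1.89 (SE 0.228). BST2 (tetherin), which holds budding virus at the cell surface, had 3 counts over the TCam-2 vehicle libraries and 12039 over the NTera2 vehicle libraries, a counting ratio of NTera2 over TCam-2 of 3187 (95% interval 1090 to 15456). TRIM22, a ubiquitin ligase, had a log2 fold change of -4.88 (SE 0.185), SHFL, which blocks frameshifting in viruses, -4.49 (SE 0.398), and OAS3, a maker of 2-5A, -3.37 (SE 0.374). Of the remaining induced genes, 6 of 15 were higher, 4 lower and 5 not called. EPSTI1 was higher by 6.55 (SE 0.345), from 411 counts in TCam-2 and 5 in NTera2, and LY6E, a surface protein, by 2.42 (SE 0.105). UBE2L6, the conjugating enzyme of ISG15, had -4.99 (SE 0.239), SP110, a nuclear body protein, -4.42 (SE 0.447) and PARP14, an ADP-ribosyltransferase, -1.87 (SE 0.219). The members and the wider list alike thus held genes well above and well below in each line.

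**Figure D3:**
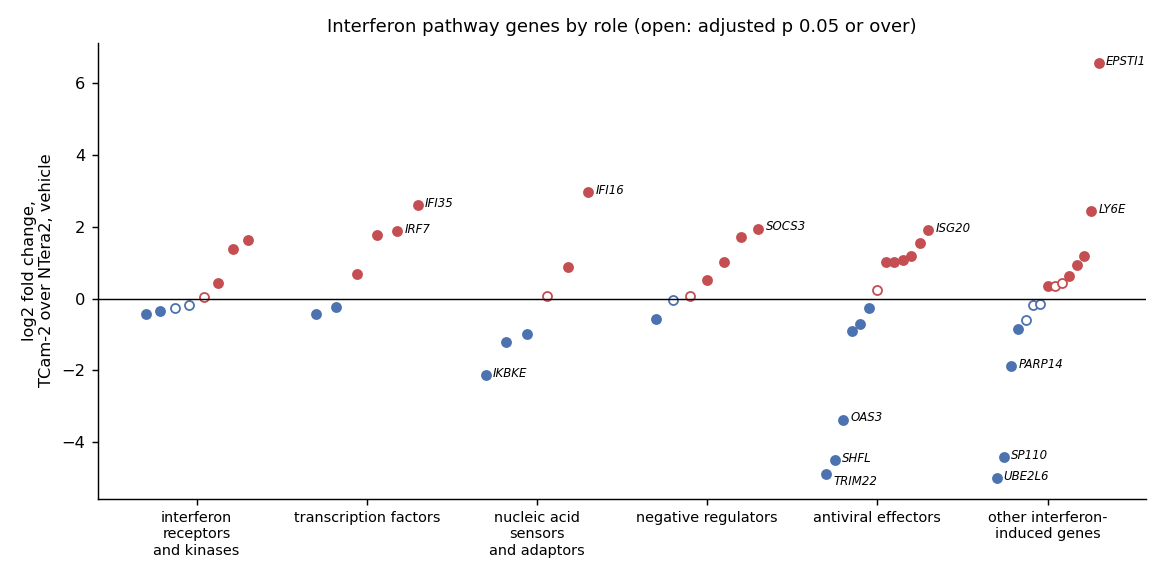
Log2 fold change of TCam-2 over NTera2 under vehicle (vertical axis) for the tested genes of the interferon pathway list that are reported here, by role (horizontal axis), with red above 0, blue below 0 and open circles for an adjusted p of 0.05 or over. Every role but the ligands, which were not tested, holds genes on both sides of 0, and BST2 is left out because TCam-2 held 3 counts.

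In TCam-2, IFITM3 was higher under OPG than under RANKL in every passage. Its OPG libraries had 181, 160.4, 194 and 168 CPM, against 132, 157, 141 and 125 CPM in RANKL libraries. The OPG and RANKL libraries did not overlap, as was true in that direction for 181 of 16621 genes (1.09%), and the means were 176 ± 14.6 CPM under OPG and 139 ± 13.8 CPM under RANKL (SD, n = 4 each). The log2 fold change of OPG over RANKL was 0.36 (SE 0.0844), or 1.28-fold. Since the set was chosen on this contrast, these values support nothing further, and 0 genes (0%) were called in it.

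The size of the IFITM3 difference varied by passage, with 0.46 at passage 118, 0.04 at passage 120, 0.45 at passage 121 and 0.43 at passage 122 on the log2 scale. RNA quality moved with the groups, as the libraries with RIN 6.1 and 3.7 are both RANKL libraries. Without both, the log2 fold change of IFITM3 was 0.39, and with any 1 of the 8 libraries left out it was 0.30 to 0.42. Denosumab libraries of TCam-2 had 145, 137, 133 and 126 CPM of IFITM3, all below every OPG library. These OPG libraries are among those the rule used, so this partly restates the choice of IFITM3. How many of all genes had denosumab libraries below OPG libraries in this way was not counted. Vehicle libraries had 144, 141, 137 and 174 CPM, which overlapped the OPG range through replicate 4. Relative to vehicle, the log2 fold change of IFITM3 was -0.15 under RANKL (SE 0.0846), 0.21 under OPG (SE 0.0846) and -0.19 under denosumab (SE 0.0850). These 3 comparisons share the vehicle libraries. The denosumab value was not called (unadjusted p = 0.0324, edgeR adjusted p = 0.731). Its fold change uses no library of the rule, but its SE and p rest on a dispersion from all 16 TCam-2 libraries, the OPG and RANKL ones included.

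**Figure D4:**
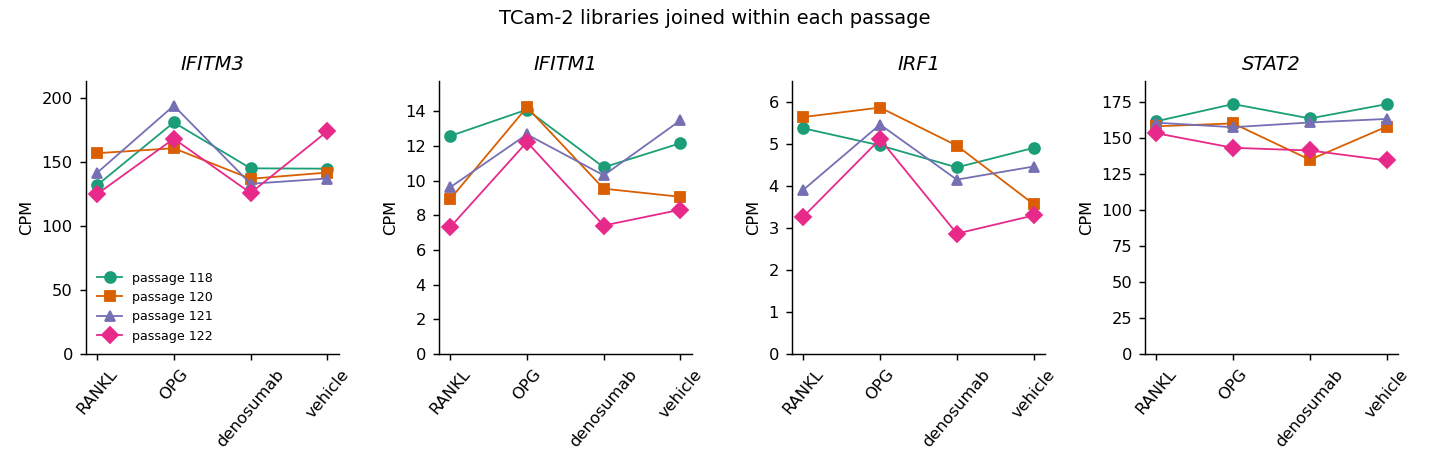
Level in CPM (vertical axis, from 0) of IFITM3, IFITM1, IRF1 and STAT2 in TCam-2 under RANKL, OPG, denosumab and vehicle, with libraries of 1 passage joined by a line. IFITM3 and IFITM1 are above RANKL under OPG in all 4 passages, IRF1 in 3 of 4, and STAT2 shows no such order.

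Other members in the same contrast are given as values only. IFITM1 had 14.1, 14.2, 12.7 and 12.2 CPM in OPG libraries, against 12.6, 8.93, 9.62 and 7.31 CPM in RANKL libraries. Its log2 fold change of OPG over RANKL, 0.49 (SE 0.170), was larger than that of IFITM3 but less precise, and it came to 0.29 without the low-RIN libraries. In every passage OPG was above RANKL for IFITM1, while the groups overlapped by 1 library. How many of all genes were above in every passage was not counted. IRF1 had 4.97, 5.88, 5.47 and 5.12 CPM in OPG libraries, against 5.38, 5.65, 3.91 and 3.27 CPM in RANKL libraries. Its log2 fold change was 0.25 (SE 0.216), and 0.12 without RANKL replicate 4, the library of lowest RIN. IRF9 had -0.40 (SE 0.316), with values of -0.63 to -0.17 when 1 library was left out, and STAT2 had 0.02 (SE 0.0738). IFITM2, ISG15, IFI6 and IFIT1 had 21, 9, 1 and 9 counts over the 4 OPG libraries and 22, 27, 0 and 25 over the 4 RANKL libraries, under the filter in TCam-2.

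The same contrast in NTera2 gave a smaller value. IFITM3 had 198, 215, 231 and 192 CPM in NTera2 OPG libraries, against 192, 202, 208 and 206 CPM in NTera2 RANKL libraries. The groups overlapped, with a log2 fold change of 0.04 (SE 0.0603, edgeR adjusted p = 0.972). IFITM1 had 80.8, 82.6, 87.5 and 84.5 CPM in OPG libraries, against 81.3, 87.4, 93.1 and 71.9 CPM in RANKL libraries, and a log2 fold change of -0.00317 (SE 0.0698, edgeR adjusted p = 0.997). The effect of OPG against vehicle differed between TCam-2 and NTera2 by 0.37 for IFITM1 (SE 0.168, unadjusted p = 0.0352, edgeR adjusted p = 0.953), which was not called, and by 0.28 for IFITM3 (SE 0.108), given without a test. In the interactions of line with RANKL, OPG and denosumab 0% of 19216 genes and 0 members were called by edgeR, with 1004, 999 and 918 unadjusted p-values under 0.05.

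No member was called in any treatment comparison. Over RANKL, OPG and denosumab against vehicle and the inhibitors against RANKL in both lines, 57 member tests in edgeR gave 0 calls, 3 unadjusted p-values under 0.05 and a smallest adjusted p of 0.587. DESeq2 also called 0 members. The background was the same, since 0% of genes were called in each of these comparisons (16621 tested in TCam-2, 17351 in NTera2), so the members do not differ from it. Unadjusted p-values under 0.05 numbered 1482 for RANKL, 1442 for OPG and 1090 for denosumab against vehicle in TCam-2, and 1787, 291 and 1258 for the same comparisons in NTera2. With the passage as a block, 30 genes were called for denosumab against vehicle in NTera2 and 2 in TCam-2, and 1 in the interaction of line with denosumab, none of them a member. Leaving out NTera2 vehicle replicate 3 gave 29 genes for denosumab against vehicle. Of the 98 pathway genes, 61 were tested in NTera2 and 59 in TCam-2, and 0 were called in any treatment comparison.

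STAT2 in NTera2 had the smallest unadjusted p-values of the member tests, while the smallest adjusted p (0.587) belonged to IRF9 in NTera2 RANKL against vehicle libraries. It had 48.6, 53.1, 44.7 and 47.6 CPM in NTera2 denosumab libraries, against 42.2, 47.7, 41.9 and 41.1 CPM in NTera2 vehicle libraries. The groups overlapped, and denosumab was higher in 4 of 4 passages, by 0.19 on the log2 scale (SE 0.0801), with an unadjusted p of 0.0250 that failed the correction (edgeR adjusted p = 0.600). The same denosumab libraries stood above every NTera2 RANKL library (43.9, 44.4, 37.5 and 41.7 CPM), so the 2 comparisons are not independent. The log2 fold change over RANKL was 0.21 (SE 0.0798, unadjusted p = 0.0160, edgeR adjusted p = 0.999976). How many of all genes had NTera2 denosumab and RANKL libraries apart in this way was not counted. The share of genes with denosumab above vehicle in every passage was not counted either. In TCam-2, STAT2 had 163, 135, 160.5 and 141 CPM in denosumab libraries, against 173, 158, 163 and 134 CPM in vehicle libraries, and a log2 fold change of -0.11 (SE 0.0742, edgeR adjusted p = 0.757). The denosumab effect on STAT2 differed between TCam-2 and NTera2 by -0.26 (SE 0.108, unadjusted p = 0.0193, edgeR adjusted p = 0.95), which was not called.

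**Figure D5:**
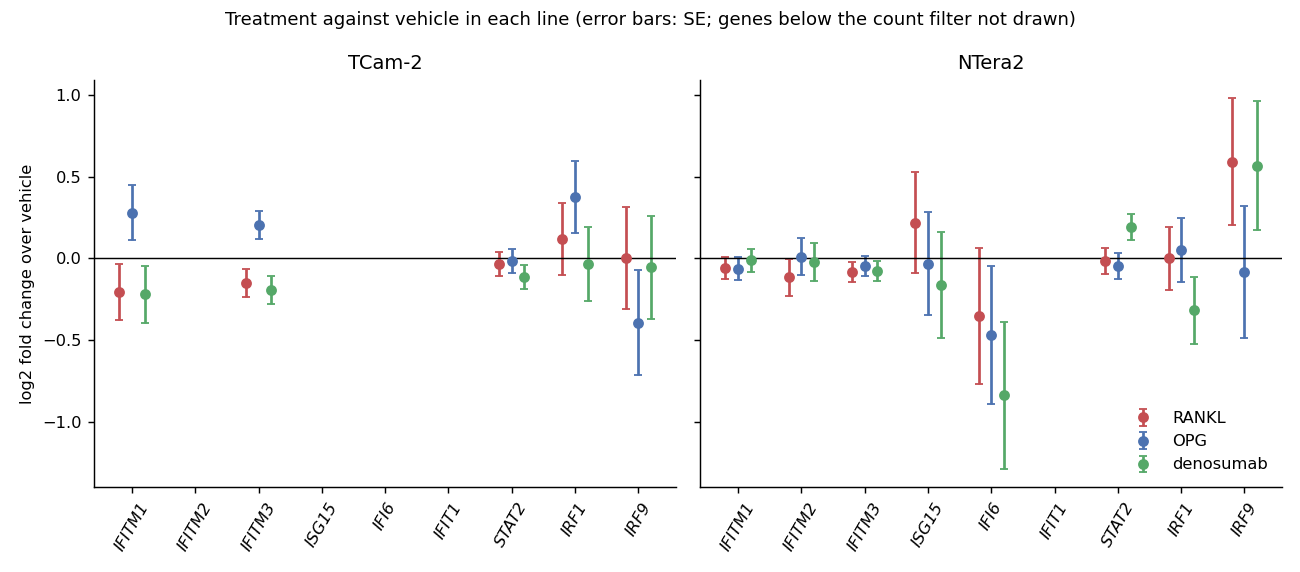
Log2 fold change over vehicle (vertical axis) for each member (horizontal axis) under RANKL, OPG and denosumab in TCam-2 (left) and NTera2 (right), with SE as error bars. No value was called, most lie within 0.5 of 0, and the widest error bars belong to IFI6, IRF9 and ISG15, which had few counts.

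IRF1 in TCam-2 had its OPG libraries narrowly above its vehicle libraries, and how many of all genes did so was not counted. These OPG libraries are among those the rule used. The OPG libraries, at 4.97, 5.88, 5.47 and 5.12 CPM, were all above the vehicle libraries, at 4.91, 3.57, 4.47 and 3.30 CPM. The log2 fold change of OPG over vehicle was 0.37 (SE 0.221) and was not called (edgeR adjusted p = 0.630). IFITM1 in TCam-2 had log2 fold changes over vehicle of -0.21 under RANKL (SE 0.172), 0.28 under OPG (SE 0.171) and -0.22 under denosumab (SE 0.174), and none was called. IFITM1 and IRF1 had their highest TCam-2 group mean under OPG, at 13.3 and 5.36 CPM, in comparisons that share libraries.

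The members with few counts moved widely and without a call. IFI6 in NTera2 averaged 0.963, 0.888 and 0.703 CPM under RANKL, OPG and denosumab, against 1.28 CPM under vehicle. The OPG and the denosumab values were each lower than vehicle in 4 of 4 passages. These comparisons share the vehicle libraries, and how many of all genes went the same way in every passage was not counted. For denosumab (log2 fold change -0.84, SE 0.448, edgeR adjusted p = 0.742) the size varied widely. It was -0.01, -1.59, -0.04 and -1.39 on the log2 scale at passages 27, 29, 30 and 31. IRF9 in NTera2 averaged 2.08, 1.32 and 2.08 CPM under RANKL, OPG and denosumab, against 1.44 CPM under vehicle, with 0.37 CPM in RANKL replicate 3 and 2.33 CPM or more in the other RANKL libraries. ISG15 in NTera2 RANKL libraries had 2.73, 1.79, 6.23 and 2.02 CPM, with replicate 3 above every other NTera2 library.

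Passages were compared next, since each passage gave 4 libraries. With treatment as a term, 0 of 8 members were called between NTera2 passages, where 8.28% of 17351 genes were called, and 0 of 5 between TCam-2 passages, where 1.77% of 16621 genes were called. At an unadjusted p under 0.05 were ISG15 and STAT2 in NTera2 (edgeR adjusted p = 0.0997 and 0.146) and IFITM1 and STAT2 in TCam-2 (adjusted p = 0.228 and 0.207). STAT2 in TCam-2 averaged 168 ± 6.36 CPM at passage 118, 152 ± 11.9 at passage 120, 160.2 ± 2.35 at passage 121 and 143 ± 7.79 at passage 122 (SD, n = 4 treatments each). IFITM3 in TCam-2 stayed at 150.4, 149, 151 and 148 CPM over the same passages, means that include the OPG and RANKL libraries of the rule. ISG15 in NTera2 averaged 2.51, 2.09, 3.92 and 2.62 CPM at passages 27, 29, 30 and 31.

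Of the pathway genes, 6 of 61 tested were called between NTera2 passages, among them BST2, TRIM25, SOCS3, HERC5 and HERC6, and 3 of 59 between TCam-2 passages (SAMHD1, IFNGR2 and SOCS3). These shares were 9.84% in NTera2, against 8.28% over all genes, and 5.08% in TCam-2, against 1.77% over all genes. BST2 in NTera2 was higher than at passage 27 by 0.24, 0.17 and 0.26 on the log2 scale at passages 29, 30 and 31 (edgeR adjusted p = 0.00271). The counts over all genes rest on single passages: without NTera2 passage 27 or passage 29 they were 242 and 144 in place of 1436, and without TCam-2 passage 118, passage 121 or passage 122 they were 4, 131 and 738 in place of 294.

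The genes most like IFITM3 across the 16 libraries of a line, by Pearson r of log2 CPM among genes of at least 10 CPM, are named as a description. In TCam-2 they were DDX27 (r = 0.85), S100A13 (0.83), SMIM10L2B (0.83), CD2BP2 (0.83) and TNFRSF1A (0.82), and in NTera2 KLHDC4 (0.90), PALM (0.87), AP2S1 (0.87), ACD (0.85) and MDH2 (0.84). No gene stood in both lists, and libraries share passages, treatments and depth. DDX27, an RNA helicase gene, ranged from 179 to 231 CPM in TCam-2. Among the members, IFITM1 and IRF1 had r = 0.46 each with IFITM3 in TCam-2 and 0.20 and 0.00 in NTera2, and STAT2 had 0.04 in TCam-2 and -0.08 in NTera2. Every r in TCam-2 includes the OPG and RANKL libraries by which IFITM3 was chosen, so it partly restates that contrast.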

How the data were processed

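The deposited values were raw read counts per gene for 32 libraries, with gene length, chromosome, start, end and strand in other columns. Per the labels' protocols, poly-A RNA was made into TruSeq Stranded libraries and read as 52-bp pairs. Per the submitters' processing notes, the authors used bcl2fastq 2.20.0, STAR 2.7.9a and featureCounts 1.6.2 on GRCh38/hg38. The annotation release, strand setting and treatment of reads with several matches are not given in the sources used here.

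These counts went into the robust quasi-likelihood F test of edgeR 4.0.16 under R 4.3.3, after filterByExpr and TMM scaling, with Benjamini-Hochberg adjustment over all genes tested and a call at an adjusted p under 0.05. Each SE was taken from the F statistic. The vehicle comparison used 8 libraries, treatment and passage comparisons the 16 of a line, and the other line comparisons and interactions all 32. The filter passed 8 of 9 members with both lines and in NTera2, and 5 of 9 in TCam-2. The test was also run on simulated counts, with changes only in genes that were not scarce in either line. Its outcome is not reported here, and it does not cover the members with few counts. A replicate number is 1 passage per the labels, so it pairs treatments within a line; libraries of the same number had deviations with a mean r of 0.186 in TCam-2 (-0.060 for different numbers) and 0.257 in NTera2 (-0.086). Alternatives were RLE size factors, DESeq2 1.42.0, no filter, a passage block and left-out libraries. Pathway genes named by rule were the 8 called ones with the largest fold change in each direction between the lines under vehicle, with at least 1 CPM in either line, and up to 6 called in any other comparison. The members and lists were chosen with earlier results of these data known. Some genes that the rule would name are not reported here.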

Additional observations from a re-analysis of the deposited data

Results flagged for a closer look

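In 71 groups of 4 libraries, 5 held a member value whose gap to the nearest other library passed Dixon's 95% critical share of the group's range, where chance gives about 1 group in 20. For IFI6 these were single counts: 1 count in TCam-2 OPG replicate 1 (0.0815 CPM), 1 in TCam-2 denosumab replicate 2 (0.0994 CPM) and 1 in TCam-2 vehicle replicate 1 (0.0780 CPM), with 0 in the other libraries of each group. ISG15 in NTera2 vehicle replicate 4 was 3.55 CPM, with the nearest library at 2.59 CPM. STAT2 in NTera2 vehicle replicate 2 was 47.7 CPM, with the nearest at 42.2 CPM, and this library belongs to the denosumab comparison of STAT2. No cause was tested.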

How the results depend on the processing

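Member values between lines and treatments, passage tests apart, were unchanged under RLE size factors, DESeq2, no filter on low counts and the replicate block (120 of 120 values each). For a tested value this meant the same side of the threshold, where a sign change of a value not called in either fit was not counted. For a value given without a test it meant a move in log2 fold change below the within-group SD of IFITM3 log2 CPM in TCam-2 OPG and RANKL libraries. With 1 library left out, 1145 of 1152 member values were unchanged in this sense, 2 lost their call (both IRF9 between the lines) and 5 moved (all in TCam-2 OPG against RANKL). Members called between the lines under vehicle numbered 6 to 7 with 1 library left out. Without a filter, genes called were 51, 54 and 28 for RANKL, OPG and denosumab against vehicle in TCam-2, 176 and 237 for RANKL and denosumab in NTera2, 1, 3 and 32 for the interactions with RANKL, OPG and denosumab, 1 each for TCam-2 denosumab against RANKL and NTera2 OPG against RANKL, and 3 for TCam-2 OPG against RANKL, each in place of 0. DESeq2 called 1 and 7 for RANKL and OPG in TCam-2, 14 for denosumab in NTera2 and 2 for the RANKL interaction. The replicate block gave 30 for denosumab in NTera2, 2 for denosumab in TCam-2 and 1 for the denosumab interaction, and changed no member call. With 1 library left out, genes called reached 0 to 29 for denosumab in NTera2 and 0 to 1 for RANKL, OPG and denosumab in TCam-2. Between passages, genes called in TCam-2 were 733 with DESeq2, 750 without a filter and 140 without the low-RIN libraries, and 4 to 738 with a passage left out, in place of 294. In NTera2 they were 144 to 1983 in place of 1436, and without a filter 1 member was called, ISG15 (edgeR adjusted p = 0.0454). Without length, 4 of 9 members kept their rank of level in TCam-2 and 4 in NTera2, and STAT2 came before IFITM3 in TCam-2. Of the 5 genes most like IFITM3, 1 was kept in TCam-2 and 3 in NTera2 when passage means were subtracted, and 1 to 4 in TCam-2 and 1 to 5 in NTera2 with 1 library left out. The causes were not tested. Depth limits IFIT1, IFI6, ISG15 and IFITM2 in TCam-2, where groups held 0 to 27 counts.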

Other observations

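Genes that attach and remove ISG15 did not move together between the lines under vehicle, and HERC5 and USP18 were picked after their values were seen. ISG15 and its conjugating enzyme UBE2L6 were lower in TCam-2, with log2 fold changes over NTera2 of -2.31 and -4.99. HERC5, its ligase, was higher in TCam-2 by 0.34 (SE 0.134, edgeR adjusted p = 0.0308), and USP18, which removes ISG15, by 1.72 (SE 0.247, adjusted p = 8.17e-06). MX1, another interferon-induced effector, was higher by 1.06 (SE 0.202, adjusted p = 0.000154), also picked after its value was seen.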
